A study of Homo sapiens with 6 samples.

Results

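The genes described are MET and 9 other receptor tyrosine kinase genes (EGFR, ERBB2, ERBB3, AXL, FGFR1, FGFR3, IGF1R, EPHA2 and DDR1), taken by symbol as 10 of the 63677 gene identifiers of a count table. MET was picked because its count was higher after silencing of RBM3 in these same libraries, so its values are given as a description without a test. The other 9 were picked by name as receptor kinases of bladder cancer cells. A filter on low counts kept 9 of the 10 receptors among 15099 genes tested, and FGFR3 fell below it. The mRNA of T24 cells, an established line from a grade 3 bladder cancer, was sequenced in 3 libraries of control cells and 3 libraries of siRBM3 cells. Both groups received Lipofectamine 2000 and siRNA at 25 nM for 4.5 h, were returned to full growth medium and were harvested the following day. In the siRBM3 group the siRNA was a pool of the 2 duplexes s11858 and s11860 against RBM3, and in the control group it was a negative control siRNA. Since the duplexes were used only as a pool, loss of RBM3 and effects of the duplexes on other mRNAs cannot be told apart. The labels do not state whether the libraries came from separate cultures, so p-values measure the spread between libraries, which may be technical.

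Receptor tyrosine kinases are membrane proteins that bind a ligand outside the cell, pair up, phosphorylate one another and thereby recruit adaptor proteins that feed the RAS and PI3 kinase pathways. MET is the receptor of hepatocyte growth factor and drives scattering, motility and invasion of epithelial cells, while the ERBB receptors, FGFR3 and EPHA2 are studied as drivers or drug targets in urothelial cancer. RBM3 is a cold-induced RNA-binding protein that has been reported to stabilise mRNAs with AU-rich elements, of which the pentamer ATTTA is the core.

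The ATTTA pentamers of the 3′ untranslated region (UTR) are shown for MET and EPHA2, the receptors with the largest differences in each direction among those with a mean of at least 10 CPM (counts of each library scaled by TMM factors to a total of 1e+06). Each window is written 5′ to 3′ on the strand of the gene, with the pentamer in capitals and 10 bases on each side, and was read from GRCh37 with GENCODE models.
MET, chr7:116436295-116436319, plus strand: ttgtattgttATTTAaattactgga
MET, chr7:116436576-116436600, plus strand: caggccactcATTTAgaattctagt
MET, chr7:116437004-116437028, plus strand: ttggaagaatATTTAtaggcaatac
MET, chr7:116437113-116437137, plus strand: gtatgaaataATTTAgtcatcatga
MET, chr7:116437131-116437155, plus strand: atcatgaaatATTTAgttgtcatat
MET, chr7:116437652-116437676, plus strand: cgacgtaaacATTTAaagtgttata
MET, chr7:116438254-116438278, plus strand: cacgtttgctATTTAtaaacttgtc
EPHA2, chr1:16451603-16451627, minus strand: tggggactttATTTAtttctagttc
EPHA2, chr1:16450897-16450921, minus strand: tcgaatcttaATTTAttattttttt
EPHA2, chr1:16450879-16450903, minus strand: ttttttttatATTTAttgttagaaa

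The longest annotated 3′ UTR of MET holds 7 pentamers in 2253 bases, or 3.11 per kb, and that of EPHA2 holds 3 in 878 bases, or 3.42 per kb. IGF1R has 12 in 7088 bases, EGFR 9 in 6011 bases, FGFR1 5, FGFR3 4 and ERBB3 2, and the UTRs of ERBB2, AXL and DDR1 hold none. The search was made on the gene's own strand, for the letters ATTTA, with overlapping matches allowed. Among 12094 tested genes with an annotated 3′ UTR, 75.1% held at least 1 ATTTA, the median was 2 per UTR and 1.72 per kb, and 26.4% held at least as many as MET. Among 5853 UTRs between 0.5 and 2 times the length of that of MET, 33.0% did. MET, picked for its rise, and EPHA2 held the pentamer, and AXL, with the next lowest fold change after EPHA2 among the abundant receptors, held none. Over all tested genes the median log2 fold change was 0.00 for 9086 genes with the pentamer and -0.06 for 3008 genes without it. Whether the pentamer bears on any of these differences was not tested.

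The silenced gene itself was checked first. RBM3 was at 225, 368 and 301 CPM in control replicates 1, 3 and 5 and at 54.1, 90.1 and 58.4 CPM in siRBM3 replicates 3, 4 and 5, a log2 fold change of -2.14 (SE 0.24; FDR = 0.0822 in edgeR's quasi-likelihood test; exact two-sided permutation p = 0.1, the smallest that 3 against 3 libraries allow). Library totals ranged from 23603992 to 45098612 counts. The deepest library, siRBM3 replicate 3, also had the largest share of mitochondrial counts, at 9.40% against 1.63% to 4.15% in the other 5. At an FDR below 0.01 and a fold change of at least 1.5, edgeR called 0 of 15099 genes (0%). In the same test 990 genes were higher and 993 were lower at a p under 0.05 before adjustment. DESeq2 called 84 genes higher and 76 lower at these thresholds.

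T24 libraries held some but not all markers of the epithelium. KRT7, KRT8 and KRT18, keratins of simple and urothelial epithelium, were at means of 3167, 1149 and 778 CPM in control cells. KRT5, KRT20, CDH1, TP63, UPK1A, UPK1B and UPK3A were below the filter. E-cadherin (CDH1, at a mean of 0.330 CPM in control) and 3 of the 4 uroplakins listed, which define differentiated urothelium, were below 1 CPM. The summed level of the 14 epithelial markers was 5077 to 5883 CPM in control and 4223 to 4321 CPM in siRBM3 libraries. It was made up mainly of KRT7, KRT8 and KRT18. The median log2 fold change of the 7 tested markers was -0.14, and 0.04 without control replicate 1. There was 1 gene higher, GATA3 (0.37), and 2 lower, KRT7 (-0.38) and KRT8 (-0.37), at p under 0.05 without adjustment (6.56% and 6.58% over all tested genes). EPCAM (0.24) and UPK2 (0.34) had positive log2 fold changes above that p. Of 11 markers of other cell types that could be matched, 5 passed the filter with 0 at p under 0.05 without adjustment, and their sum was 40.7 to 47.7 CPM in control and 48.1 to 53.7 CPM in siRBM3 libraries. CDH5, an endothelial cadherin, made up most of that sum, with means of 30.4 and 36.7 CPM, and HBB was at 0 in all 6 libraries. Whether these differences bear on the receptors was not tested, and in RNA of a whole culture, fewer cells with a receptor and less receptor mRNA per cell cannot be told apart.

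Receptor mRNA levels spanned more than 3 orders of magnitude, and their order per kb of annotated exon was the same in both groups. To compare genes, CPM were divided by the kilobases of annotated exon. EPHA2, an ephrin receptor, led with 128 ± 10.5 (SD, n = 3) CPM per kb in control and 95.5 ± 2.20 in siRBM3 cells. AXL, the receptor of GAS6, followed with 75.7 ± 1.65 and 58.1 ± 4.36, and MET was the third with 24.2 ± 2.20 and 42.7 ± 0.812. ERBB2, the ERBB receptor without a known ligand, stood at 11.4 ± 2.49 and 11.4 ± 1.25, the collagen receptor DDR1 at 7.14 ± 0.848 and 8.27 ± 0.972, and the EGF receptor EGFR at 4.63 ± 0.682 and 4.97 ± 0.775. FGFR1, a fibroblast growth factor receptor, was at 1.56 ± 0.288 and 1.32 ± 0.204, and the insulin-like growth factor receptor IGF1R at 0.454 ± 0.0912 and 0.498 ± 0.0998. FGFR3, often mutated in non-invasive bladder tumours, and ERBB3, the kinase-impaired partner of ERBB2, were lowest, at 0.0836 ± 0.0580 and 0.0470 ± 0.0292 in control and 0.0806 ± 0.0123 and 0.0772 ± 0.0113 in siRBM3 cells. Every neighbour in this order was separated without overlap between libraries in both groups except FGFR3 and ERBB3, whose ranges overlapped. The length used matters for genes with many annotated exons: with the length of the longest transcript the means in control and siRBM3 cells were 25.4 and 44.8 CPM per kb for MET, 23.8 and 23.8 for ERBB2, 15.7 and 18.2 for DDR1 and 4.33 and 3.64 for FGFR1. EGFR was at 7.45 in control cells. On that scale MET and ERBB2 overlapped in the control group, and the mean of ERBB3 (0.144) was above that of FGFR3 (0.0907) in siRBM3 cells. Among 14747 tested genes with a length, EPHA2 ranked 289th, AXL 543rd, MET 1223rd, ERBB2 3756th and EGFR 6803rd.

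**Figure D1:**
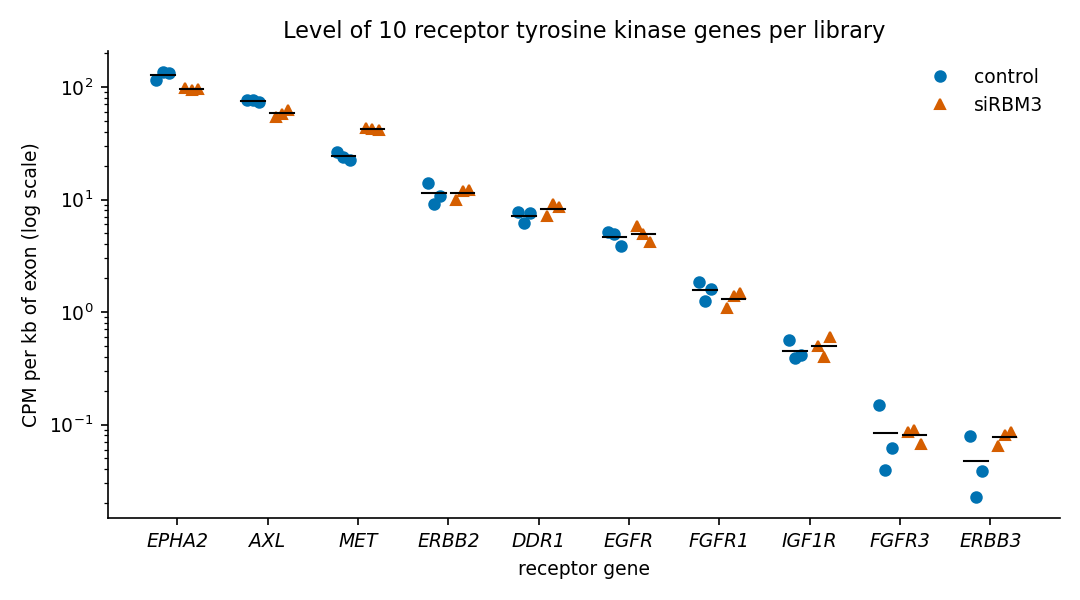
Level of the 10 receptor mRNAs in CPM per kb of exon (vertical log axis) in each of 3 control (circles) and 3 siRBM3 (triangles) libraries, with a line at each group's mean. With this length EPHA2, AXL and MET stood above the other 7 receptors in all 6 libraries, although by the longest transcript ERBB2 (29.5) was above MET (28.0) in control replicate 1, and the groups were separated for these 3 genes.

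MET (ENSG00000105976, chr7:116312250-116438431, plus strand) was at 192, 171 and 161 CPM in control replicates 1, 3 and 5 and at 314, 308 and 303 CPM in siRBM3 replicates 3, 4 and 5. All 3 siRBM3 libraries were above all 3 control libraries, as for 9.98% of all tested genes. The siRBM3 libraries lay close together, with a coefficient of variation of 1.90% against 9.07% in the control group. The means were 175 ± 15.9 (SD, n = 3) and 308 ± 5.87 CPM, a 1.76-fold difference (log2 fold change 0.82, SE 0.10). This value was 0.80 without siRBM3 replicate 3, the library rich in mitochondrial counts, and 0.76 to 0.89 over 13 other settings. These refits use the counts by which MET was picked, so they describe its value and do not test it. As a description of the value by which MET was picked, 210 of the 15099 tested genes had a log2 fold change at least as high, of which 21 were among the 2191 genes with a mean of at least 100 CPM. No other annotated gene overlaps the exons of MET.

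EPHA2 and AXL, which of the 10 receptors were the only ones above MET per kb of exon, had lower counts in siRBM3 cells. EPHA2 (ENSG00000142627, chr1:16450832-16482564, minus strand) was at 481, 563 and 547 CPM in control and at 405, 386 and 395 CPM in siRBM3 libraries. The log2 fold change was -0.42 (SE 0.10; unadjusted p = 0.0019; FDR = 0.151 in edgeR's quasi-likelihood test; adjusted p = 0.0153 in DESeq2). AXL (ENSG00000167601, chr19:41725128-41767671, plus strand), whose product is tied to motility and drug resistance, was at 392, 395 and 379 CPM in control and at 277, 297 and 322 CPM in siRBM3 libraries. Its log2 fold change was -0.38 (SE 0.09; unadjusted p = 0.00284; FDR = 0.161 in edgeR; adjusted p = 0.0361 in DESeq2). The groups did not overlap for either gene, but both differences were below 1.5-fold and neither passed an FDR of 0.01 with either tool. Leaving out siRBM3 replicate 3 gave -0.44 for EPHA2 and -0.33 for AXL, and over 13 other settings the adjusted p ranged from 0.0153 to 0.399 for EPHA2 and from 0.0361 to 0.427 for AXL.

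For the receptors of the ERBB family the groups overlapped. EGFR (chr7:55086710-55279321) was at 81.4, 78.6 and 61.3 CPM in control and at 91.9, 78.5 and 67.2 CPM in siRBM3 libraries (log2 fold change 0.10, SE 0.15, FDR = 0.820 in edgeR), and the value was -0.02 without siRBM3 replicate 3. ERBB2 (chr17:37844167-37886679) was at 145, 94.9 and 112 CPM in control and at 103, 124 and 126 CPM in siRBM3 libraries. Its log2 fold change was 0.00 (SE 0.16, FDR = 0.999 in edgeR), with a sign that turned with the scaling and with the library left out. In addition, 6.93% of its exon length is also covered by the antisense genes MIEN1 and PGAP3. ERBB3 (chr12:56470583-56497289) had only 27, 7 and 12 reads in control and 31, 24 and 25 reads in siRBM3 libraries. With so few reads its exact 95% intervals per library ran from 0.106 to 1.43 CPM of the total in control and from 0.467 to 1.56 in siRBM3 libraries, for counting error only. Its log2 fold change of 0.68 (SE 0.43, FDR = 0.549 in edgeR) was 1.30 without control replicate 1 and 0.36 without control replicate 3.

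**Figure D2:**
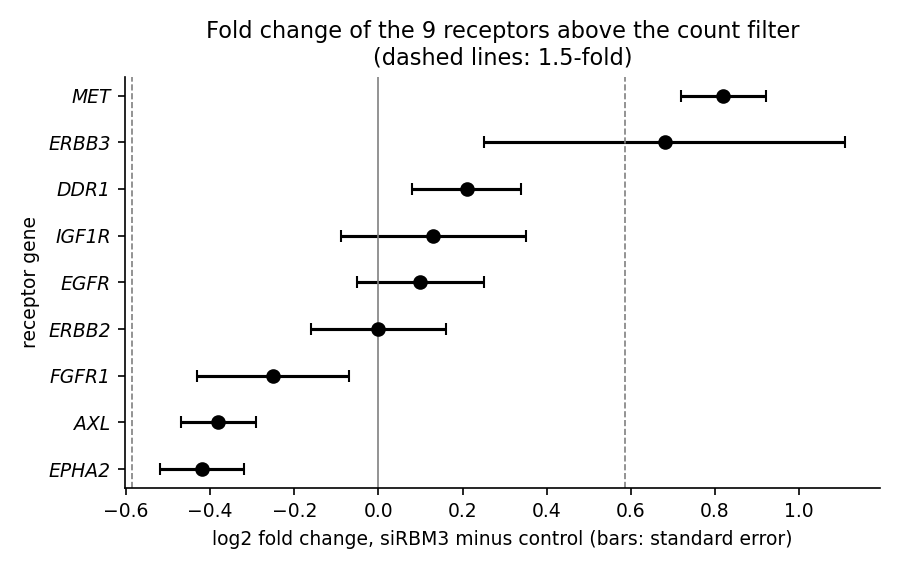
Log2 fold change of siRBM3 against control for the 9 receptors above the count filter (points, edgeR) with 1 standard error (bars) and dashed lines at 1.5-fold. MET lay at 0.82 beyond the line, ERBB3 at 0.68 with a standard error of 0.43, and EPHA2 and AXL lay below 0 but inside the lines.

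Of the remaining receptors, DDR1 (chr6:30844198-30867933) was at 70.0, 56.2 and 69.2 CPM in control and at 65.7, 83.1 and 77.6 CPM in siRBM3 libraries (log2 fold change 0.21, SE 0.13, FDR = 0.532 in edgeR). FGFR1, on chromosome 8, was at 31.6, 21.7 and 27.3 CPM in control and at 18.6, 24.1 and 25.2 CPM in siRBM3 libraries (log2 fold change -0.25, SE 0.18, FDR = 0.588 in edgeR). IGF1R (chr15:99191768-99507759) was at 7.79, 5.47 and 5.72 CPM in control and at 6.90, 5.57 and 8.35 CPM in siRBM3 libraries (log2 fold change 0.13, SE 0.22, FDR = 0.841 in edgeR). The groups overlapped for all 3 genes. Leaving out control replicate 3 gave 0.12 for DDR1 and -0.38 for FGFR1. Leaving out control replicate 1 gave -0.12 for FGFR1 and 0.31 for IGF1R. DDR1 was at 0.30 when siRBM3 replicate 3 was dropped, and IGF1R at -0.02 when siRBM3 replicate 5 was dropped. FGFR3 (chr4:1795020-1810599) had 21, 5 and 8 reads in control and 17, 11 and 8 reads in siRBM3 libraries and was below the filter. Without a filter its log2 fold change was -0.05 (SE 0.51, FDR = 0.982 in edgeR).

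Of the 8 tested receptors other than MET, 0 were higher and 2 were lower at p under 0.05 without adjustment, against a background of 6.56% and 6.58% of all tested genes. The same 2 receptors had groups without overlap, where 9.98% of all genes did not overlap with siRBM3 higher and 9.93% with siRBM3 lower. At an FDR below 0.01 and 1.5-fold, 0 of the 8 were called by edgeR (background 0%) and 0 by DESeq2 of the 7 with an adjusted p (background 0.667% higher and 0.604% lower of 12589 genes that had one). The median log2 fold change of the 8 was 0.05, and that of all tested genes -0.01. Dropping control replicate 3 gave a median of -0.05 for the receptors, and dropping control replicate 1 gave 0.18. Without siRBM3 replicate 3, the count at p under 0.05 without adjustment was again 0 higher and 2 lower, then of 9 tested (background 4.35% and 5.35%). It was 1 higher and 2 lower without control replicate 1, where 1141 and 1325 of all 15341 tested genes were. With the replicate number as a block it was 2 higher and 2 lower, where 1714 and 2031 of all 15099 tested genes were. Control replicate 1 was the highest of its group for 8 of the 10 receptors, and control replicate 3 the lowest for 6.

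The make-up of the receptor mRNA was then described per library. MET made up 10.7%, 9.16% and 8.83% of the summed level of the 10 receptors in control replicates 1, 3 and 5 and 19.8%, 19.2% and 18.4% in siRBM3 replicates 3, 4 and 5. These are means of 9.57% ± 1.00 (SD, n = 3) and 19.1% ± 0.677. EPHA2 made up 50.5% ± 3.29 in control and 42.8% ± 1.39 in siRBM3 cells, and AXL 29.9% ± 0.740 and 26.1% ± 1.52. The summed level itself was 253 ± 5.03 CPM per kb in control and 223 ± 3.77 in siRBM3 cells, lower in every siRBM3 library than in every control library. The ratio of MET to EPHA2 was 0.229, 0.174 and 0.169 in control and 0.445, 0.457 and 0.439 in siRBM3 libraries, and that of MET to AXL was 0.320 ± 0.0255 and 0.737 ± 0.0690. EPHA2 to AXL, a ratio without MET, was 1.69 ± 0.147 and 1.65 ± 0.147, with overlapping groups.

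**Figure D3:**
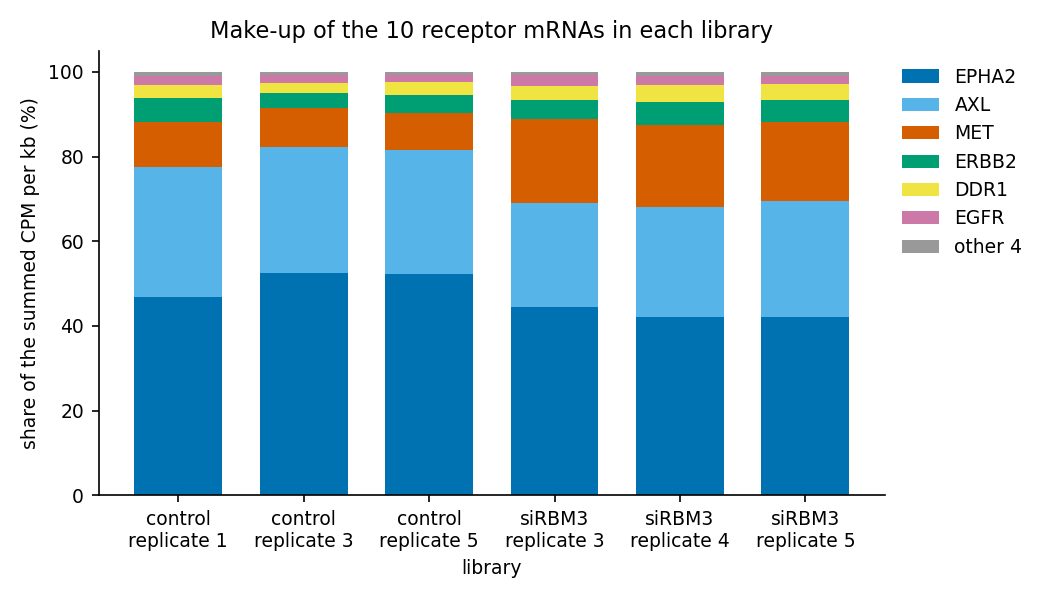
Share of each receptor in the summed CPM per kb of the 10 receptors (vertical axis, %) for each of the 6 libraries, as stacked bars that add up to 100%. MET took 8.83% to 10.7% of the bar in control and 18.4% to 19.8% in siRBM3 libraries, while EPHA2 stayed the largest share in all 6.

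The genes whose log2 CPM over the 6 libraries was most like that of MET, among 9427 genes with a mean of at least 10 CPM, were NORAD (Pearson r = 0.999), PPP2R5E (0.997), MSRB3 (0.996), G3BP2 (0.996) and PPP2R1B (0.993). NORAD, a long noncoding RNA that binds Pumilio proteins, was at 303, 278 and 273 CPM in control and at 416, 413 and 400.4 CPM in siRBM3 libraries. PPP2R5E and PPP2R1B encode subunits of protein phosphatase 2A, MSRB3 a methionine sulfoxide reductase, and G3BP2 an RNA-binding protein of stress granules. Among the receptors, r with MET was -0.98 for EPHA2, -0.93 for AXL, 0.73 for ERBB3 and 0.59 for DDR1, and it lay between -0.45 and 0.39 for the other 5. The 6 points fall into the 2 groups and share their library scaling, so these values describe the contrast and were not tested.

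The genes around the receptors were followed in fixed lists, ordered from ligand to turnover. For the ligand of MET, hepatocyte growth factor (HGF), 0, 3 and 3 reads were counted in control and 0, 2 and 0 reads in siRBM3 libraries. For the count of 0 in the deepest library a floor of 3 counts is 0.0665 CPM of the total and the exact 95% upper limit is 0.0818. Of 7 genes for HGF and its activation 3 were tested, with a median log2 fold change of -0.11. At p under 0.05 without adjustment 0 were higher and 1 lower (6.56% and 6.58% over all tested genes). The lower gene was PLAU, the urokinase that cleaves plasminogen and can activate HGF, at 131, 205 and 153 CPM in control and at 115, 93.8 and 79.3 CPM in siRBM3 libraries. Its log2 fold change was -0.76 (SE 0.19, FDR = 0.175 in edgeR). It was the 1 gene of the 3 without overlap between the groups (9.98% of all tested genes with siRBM3 higher and 9.93% with siRBM3 lower). The inhibitors of the activating proteases were measured too, with SPINT2 at means of 120.2 and 114 CPM and SPINT1 at 29.0 and 27.0 CPM. All 8 genes for partners of MET at the membrane were tested, with a median of 0.09. At p under 0.05 without adjustment 1 was higher and 0 lower (again 6.56% and 6.58% over all tested genes). That gene was PLXNB1, a semaphorin receptor, at means of 66.4 and 82.7 CPM (log2 fold change 0.32, FDR = 0.350 in edgeR). The partners with the highest CPM were PLXNB2 at 1089 and 1245 CPM, the hyaluronan receptor CD44 at 1105 and 1223 CPM and the integrin ITGA6 at 525 and 547 CPM.

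Of 11 ligands of the ERBB receptors 8 were tested, and all 8 log2 fold changes were below 0 under each scaling tried. EGF was nearest to 0 at -0.02 (SE 0.30). Over all tested genes 7774 of 15099 were below 0. The median of the 8 ligands was -0.67, and it was -0.36 without control replicate 3 and -0.90 without control replicate 1 or without siRBM3 replicate 3. At p under 0.05 without adjustment 0 of the ligands were higher and 3 lower, where 6.56% and 6.58% of all tested genes were. EREG, epiregulin, was at 178, 519 and 458 CPM in control and at 252, 154 and 164 CPM in siRBM3 libraries (log2 fold change -1.02, SE 0.38, FDR = 0.325 in edgeR). TGFA was at 73.0, 141 and 85.1 CPM in control and at 76.6, 53.3 and 55.2 CPM in siRBM3 libraries (log2 fold change -0.69, FDR = 0.310 in edgeR). HBEGF was at 46.9, 114 and 66.0 CPM in control and at 67.9, 26.7 and 33.0 CPM in siRBM3 libraries (log2 fold change -0.82, FDR = 0.463 in edgeR), and AREG was low, at means of 1.04 and 0.309 CPM (-1.65, FDR = 0.353 in edgeR). Control replicate 1 was the lowest control library and siRBM3 replicate 3 the highest siRBM3 library for all 4 of these ligands, so the groups overlapped. The number lower at p under 0.05 without adjustment was 5 without control replicate 1 and 5 without siRBM3 replicate 3. Over all genes, 1325 of 15341 and 826 of 15445 were lower in these fits. The number of ligands was 0 without control replicate 3, 1 without control replicate 5, 0 without siRBM3 replicate 4 and 0 without siRBM3 replicate 5. Over all genes, 814 of 15436, 695 of 15423, 707 of 15437 and 770 of 15405 were lower there. With limma-voom 1 ligand was lower (972 of 15099 genes), by library size only 4 (1130 of 15099) and with the replicate block 6 (2031 of 15099). Of the 7 genes that release such ligands or regulate the release, the sheddases, 0 were at p under 0.05 without adjustment (6.56% higher and 6.58% lower over all tested genes). Their median was -0.01, with ADAM15 at means of 287 and 271 CPM, ADAM9 at 257 and 264 CPM and ADAM10 at 203 and 182 CPM.

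Of 25 genes listed as ligands of the other receptors 9 were tested, with a median log2 fold change of -0.10. At p under 0.05 without adjustment 3 were higher and 1 lower (6.56% and 6.58% over all tested genes). The median was 0.10 without control replicate 3 and 0.04 without siRBM3 replicate 3. FGF2, a ligand of FGFR1, was at 44.9, 69.3 and 56.9 CPM in control and at 40.1, 36.0 and 33.4 CPM in siRBM3 libraries (log2 fold change -0.64, SE 0.16, FDR = 0.175 in edgeR). The higher genes were EFNA5, an ephrin that binds EPHA2, at means of 60.2 and 79.5 CPM (0.40), and IGF2, a ligand of IGF1R, at 18.1 and 31.2 CPM (0.78). The third was PROS1, protein S, which was listed beside GAS6, at 19.5 and 26.9 CPM (0.47). Over the 9 tested genes the groups did not overlap for 3 with siRBM3 higher and 1 with siRBM3 lower, these same 4 genes (9.98% and 9.93% over all tested genes). GAS6, the main ligand of AXL, was at 62.1 ± 18.7 and 50.8 ± 3.76 CPM, with overlap. Among the IGF binding proteins 4 of 6 were tested, with a median of -0.23 (-0.13 without control replicate 5, -0.34 without siRBM3 replicate 4), and IGFBP4 was the 1 gene at p under 0.05 without adjustment, at 2670.4 ± 246 and 2061 ± 174 CPM (log2 fold change -0.37, FDR = 0.236 in edgeR). At that p 6.56% of all tested genes were higher and 6.58% lower. IGFBP4 was also the 1 gene of the 4 without overlap (9.93% of all tested genes with siRBM3 lower).

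Of 25 adaptors and first effectors 24 were tested, with a median log2 fold change of 0.08, 4 higher and 0 lower at p under 0.05 without adjustment (6.56% and 6.58% over all tested genes). CRK, an adaptor that links receptors to RAC and RAP signalling, was at 103, 94.2 and 95.1 CPM in control and at 160.1, 145 and 159.8 CPM in siRBM3 libraries. Its log2 fold change was 0.67 (SE 0.09; FDR = 0.0822 in edgeR's quasi-likelihood test), and it was the 1 gene of the list called by DESeq2 (adjusted p = 5.73e-06). Of 12589 genes with an adjusted p, DESeq2 called 0.667% higher and 0.604% lower. IRS1, the docking protein of IGF1R, was at means of 62.0 and 83.3 CPM (0.43, FDR = 0.146 in edgeR), FRS2, the docking protein of the FGF receptors, at 20.7 and 30.6 CPM (0.56, FDR = 0.214), and SOS1, the exchange factor for RAS, at 66.1 and 81.3 CPM (0.30, FDR = 0.328). Over the 24 tested genes the groups did not overlap for 5 with siRBM3 higher, these 4 among them, and for 2 with siRBM3 lower (9.98% and 9.93% over all tested genes). The 2 were PIK3CB and STAT3, neither at p under 0.05 without adjustment. The adaptors with the highest CPM were SHC1 at 361 and 380.4 CPM, CRKL at 228 and 229 CPM and STAT3 at 235 and 204 CPM. Without siRBM3 replicate 3 the list had 3 genes higher and 1 lower at p under 0.05 without adjustment (4.35% and 5.35% over all genes).

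Of 24 negative regulators and turnover genes 23 were tested, with a median log2 fold change of 0.09, 6 higher and 1 lower at p under 0.05 without adjustment (6.56% and 6.58% over all tested genes). CBL, the ubiquitin ligase that marks MET, EGFR and other receptors for degradation, was at 122, 132 and 124 CPM in control and at 159, 159.5 and 151 CPM in siRBM3 libraries (0.31, SE 0.08, FDR = 0.197 in edgeR). Its relative CBLB was at means of 13.1 and 18.6 CPM (0.51), and PTPN1, a phosphatase that acts on MET and the insulin receptor, at 118 and 155 CPM (0.40, FDR = 0.176 in edgeR). LRIG3, PTPRK and SPRY1 were the other 3 higher genes, at 0.56, 0.25 and 0.66 on the log2 scale. HGS, which sorts ubiquitinated receptors to the lysosome, was the lower gene, at 156 and 132 CPM (-0.24, FDR = 0.276 in edgeR). Over the 23 tested genes the groups did not overlap for 6 with siRBM3 higher and 1 with siRBM3 lower, these same 7 genes (9.98% and 9.93% over all tested genes). Without siRBM3 replicate 3 the counts at p under 0.05 without adjustment were 4 higher and 1 lower (4.35% and 5.35%). ERRFI1, a feedback inhibitor of EGFR, had the highest CPM of the list at 1471 ± 444 and 1220.0 ± 396 CPM, with overlap.

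**Figure D4:**
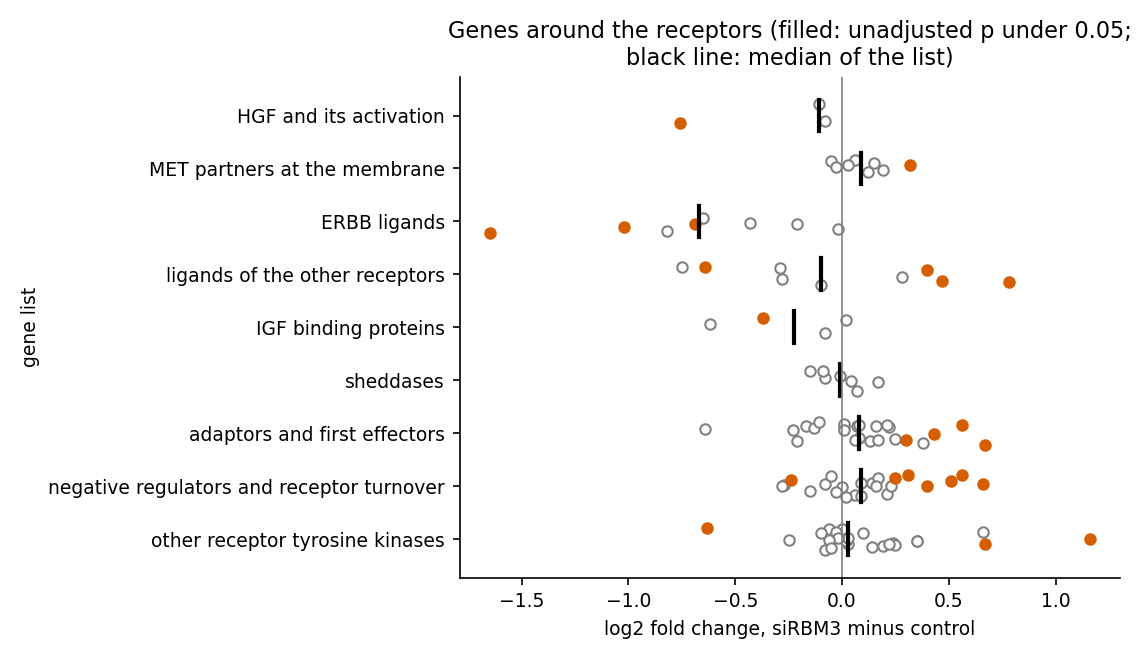
Log2 fold change of siRBM3 against control (horizontal axis) for the tested genes of 9 lists around the receptors (rows), filled where the unadjusted p was under 0.05, with a black line at the median of each list. The ERBB ligands had the lowest median at -0.67, and the other 8 medians lay between -0.23 and 0.09.

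Of 48 other receptor tyrosine kinases 24 were tested, with a median log2 fold change of 0.03, 2 higher and 1 lower at p under 0.05 without adjustment, a share near the 6.56% and 6.58% of all tested genes. EPHA4, an ephrin receptor, was at 13.5, 12.7 and 15.1 CPM in control and at 22.5, 18.4 and 24.7 CPM in siRBM3 libraries (log2 fold change 0.67, SE 0.15; FDR = 0.151 in edgeR; adjusted p = 0.00792 in DESeq2, the 1 gene of the list that DESeq2 called). Over all genes with an adjusted p, DESeq2 called 0.667% higher and 0.604% lower. ERBB4, the neuregulin receptor, was low, at means of 0.821 and 1.87 CPM (1.16, FDR = 0.230 in edgeR), and STYK1 at 2.65 and 1.72 CPM (-0.63, FDR = 0.261). EPHA4 and EPHA2 thus lay on opposite sides of 0, although neither passed an FDR of 0.01 in edgeR. The kinases with the highest CPM, which are not corrected for length, were PTK7 at 146 and 148 CPM, EPHB4 at 70.7 and 90.0 CPM and RYK at 77.0 and 87.7 CPM, all with overlap.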

How the data were processed

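RNA-seq counts of 3 control and 3 siRBM3 libraries of T24 cells were used, all 6 grouped by their labels. The authors deposited raw counts by Ensembl identifier. Stranded mRNA libraries were sequenced as single 75-base reads, trimmed with BBDuk, aligned to GRCh37 with STAR, marked for duplicates with Picard and counted with featureCounts. For the annotation release, the strand setting and the use of marked duplicates, nothing was given in the sources used here. Overlapping and antisense genes may share reads. In all, 55665 identifiers were matched to GENCODE gene models on GRCh37, and exon lengths and 3′ UTRs were taken from them.

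Low genes were removed with filterByExpr (at least 10 counts, at least 15 in total; edgeR 4.0.16), scaled by TMM and fitted with edgeR's quasi-likelihood test over 15099 genes, with Benjamini-Hochberg adjustment (FDR). The thresholds, an FDR of 0.01 and 1.5-fold, follow the study, which used DESeq2. R 4.3.3 and Python 3.11.15 were used. The fits were also run on simulated counts drawn independently for each gene and library. Such counts do not cover deviations that the genes of a library share. Replicate counts differed with a chi-square of 27.7 to 141 per degree of freedom, so no library was a repeat of another. Alternatives were DESeq2 1.42.0, limma-voom (limma 3.58.1), RLE factors, library size only, 2 other filters, the replicate number as a block, the longest transcript as length, and each library left out.

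The receptors and lists were chosen with earlier results of these data known. Named genes were the 10 receptors, RBM3, the 3 genes of each list with the smallest p and the 3 with the highest CPM, and the 5 genes most like MET by Pearson r of log2(CPM + 0.5). SOS1, PROS1, LRIG3, PTPRK, SPRY1 and HGS were added after their values were seen.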

Additional observations from a re-analysis of the deposited data

How the results depend on the processing

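Of 435 alternative values, 379 kept their side of the threshold or stayed within the replicate spread or, for counts, within 1.5 times. Another 43 moved further, 10 reversed and 3 passed the thresholds. Of the 379, 6 medians near 0 had the other sign: other receptor kinases by library size (-0.02), sheddases with the block (0.01) and without siRBM3 replicate 4 (0.02), and the 8 receptors without control replicate 3 (-0.05), control replicate 5 (-0.02) or siRBM3 replicate 5 (-0.04). The number of genes called was 84 higher and 76 lower with DESeq2, 127 and 152 without a filter on low counts, and 145 and 191 with the replicate block. With 1 library left out it ranged from 0 to 0 higher and from 0 to 1 lower, with 1 without control replicate 1. The receptors other than MET stayed at 0 called in all 13 alternatives, and MET ranged from 0.76 to 0.89. Only DESeq2, the fit without a filter and the replicate block called more than 1 gene of all tested. In the other alternatives, 0 called receptors therefore says little. RBM3 passed the thresholds with DESeq2 (-2.14), without a filter (-2.13) and with the replicate block (-2.57), and ranged from -2.40 to -1.96 with 1 library left out. The replicate numbers 3 and 5 are shared by the groups. Deviations of same-numbered libraries had r = 0.528 and 0.088, against -0.364 to 0.201 for differently numbered pairs. So few shared numbers cannot decide whether the libraries were paired, and the blocked fit leaves 1 degree of freedom per gene. Control replicate 1 and siRBM3 replicate 4 are each alone in their block, so the blocked contrast rests on the libraries numbered 3 and 5. ERBB2 changed sign with DESeq2 (-0.00), RLE factors (-0.00) and library size only (-0.05) and ranged from -0.13 to 0.18 with 1 library left out, EGFR from -0.02 to 0.21 IGF1R from -0.02 to 0.31, DDR1 from 0.12 to 0.30 and FGFR1 from -0.38 to -0.12, and the cause was not tested. List medians moved as follows, with the last range of each for 1 library left out: other receptor kinases to 0.17 with the block and 0.02 to 0.20 leaving out 1 library, HGF and its activation to -0.27 to -0.06, MET partners to 0.05 by library size, 0.10 without filter, 0.08 with the block and 0.04 to 0.13, other ligands to 0.09 at a mean of 20 counts and -0.13 to 0.10, sheddases to -0.07 to 0.02, adaptors to 0.23 with the block and 0.03 to 0.15, epithelial markers to -0.27 to 0.04, other cell types to -0.00 to 0.17, ERBB ligands to -0.90 to -0.36, IGF binding proteins to -0.34 to -0.13, negative regulators to 0.06 to 0.17, and the 8 receptors to -0.05 to 0.18. With the length of the longest transcript the share of MET in siRBM3 cells was 17.1%, and ERBB2 was at 23.8 CPM per kb in both groups. Scaling by library size only moved the median of all genes to -0.06 and gave 611 higher and 1130 lower genes at an unadjusted p under 0.05, against 990 and 993.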
